A study of Mus musculus with 6 samples.

Results

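Imprinted genes are expressed mainly from the copy inherited from a single parent. The set described here holds 10 imprinted genes named in work on the islet: Nnat, Dlk1, Peg3, Plagl1 and Mest, which are expressed mainly from the paternal copy, Meg3, Rian, H19 and Cdkn1c, expressed from the maternal copy, and Grb10, maternal in most tissues. They were taken by name out of 53379 genes in the count tables, and all 10 were present. The choice was made partly because Nnat was higher with the JunD gRNA, so the differences of these 10 genes between the groups are given as a description and are not tested. Of the 10, 9 passed the filter on low counts, and H19 did not.

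RNA abundance was measured by bulk RNA-seq of total RNA in Min6, a beta-cell line derived from a mouse insulinoma. The cells had received lentiCRISPR v2, a lentiviral vector that delivers Cas9 together with a guide RNA (gRNA), with a gRNA against JunD in 3 libraries or against the Rosa26 locus, the negative control, in 3 libraries. All 6 libraries came from passage 28 cells, collected on day 8 of transduction, with glucolipotoxic conditions for the preceding 30 hours, a combined load of glucose and fatty acid. Cells without this load were not analysed here, so the JunD and the Rosa26 groups share it, as they share Cas9 and the vector. JunD is a transcription factor of the AP-1 family.

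Imprinting is set in the germ line by DNA methylation of control regions, which then decide which parental copy of a whole cluster of genes is read. The clusters often pair a protein-coding gene with a long non-coding RNA that is read from the opposite parental copy, as Dlk1 and Meg3, or Igf2 and H19. In the islet, imprinted genes are known for roles in beta-cell growth and in insulin production, and errors at such clusters cause neonatal diabetes and hyperinsulinism in humans. The counts do not separate the parental copies, so every value below is the sum over both.

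Libraries held between 41071566 and 50024931 counts assigned to genes, and the 10 genes together took 0.518%, 0.508% and 0.508% of them in the JunD gRNA libraries, against 0.504%, 0.491% and 0.487% in the Rosa26 gRNA libraries. Jund itself had 944, 1029 and 1333 counts with the JunD gRNA, against 1706, 1727 and 1454 with the Rosa26 gRNA, and its log2 fold change was -0.47 ± 0.11 (SE; edgeR quasi-likelihood test, Benjamini-Hochberg adjusted p = 0.417). Jund shares 877 of its 1668 exonic bases with Gm11175 on the opposite strand, which had 0 counts in every library. The strand setting of the counting is not given, so the Jund counts may leave out reads from that part. Rosa26 gRNA replicate 1 stood apart from the other 5 libraries: the median absolute deviation of a gene there from its mean over the remaining libraries was 0.30 (log2). It was 0.09 to 0.16 for each other library, where that mean includes Rosa26 gRNA replicate 1. In that library the 10 beta-cell markers took 4.27% of the counts, against 7.33% to 8.18% in the others. A list of structural and mitochondrial ribosomal RNAs and the protein-coding gene Lars2, used here as a sign of RNA quality, took 0.78% against 0.111% to 0.146%. That list separated the groups without this library too, at 1109 to 1271 CPM (the count scaled to the library total) with the JunD gRNA against 1314 and 1457 CPM with the Rosa26 gRNA. Over 5 libraries 3 of its 5 genes passed the test as lower, against 1.40% of all tested genes, Lars2 first (log2 fold change -0.54 ± 0.08, edgeR adjusted p = 0.000186). The deviations in Rosa26 gRNA replicate 1 ran against the GC content of the gene (Spearman -0.506, a description over genes, which are not independent). Those of the JunD gRNA libraries ran with GC content (0.263 to 0.419). Without that library the correlations of the JunD gRNA libraries were 0.061, 0.0248 and 0.303, and those of the remaining Rosa26 gRNA libraries -0.188 and -0.244. Differences of the 10 genes are therefore given with and without this library, and for several of them also after correcting for GC content and length of the transcript. Without it, the log2 fold change of Jund was -0.38 ± 0.08 (SE, adjusted p = 0.00773). The part of these measures and of the beta-cell markers in the differences below was not tested. All 10 beta-cell markers had at least 1 CPM in every library. Over 5 libraries 5 of these 10 passed the test as higher with the JunD gRNA and 1 as lower. Of all tested genes, 1.45% and 1.40% did so. Among the higher were the transcription factor genes Mafa (log2 fold change 0.47 ± 0.06, edgeR adjusted p = 0.000117) and Pdx1 (0.37 ± 0.04, adjusted p = 1.45e-05). The lower one was Iapp (-0.11 ± 0.03, adjusted p = 0.0382). The other 4 did not pass, and over all 6 libraries 0 of the 10 passed. The 9 mesenchymal markers, of interest because Dlk1, Igf2 and H19 are abundant in fetal mesenchyme, summed to 2.56 to 4.13 CPM with the JunD gRNA and 2.12 to 4.04 CPM with the Rosa26 gRNA. None of the 9 had 1 CPM in all libraries, and Col3a1, Lum and Postn had no count at all.

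Promoter sequences of 4 of the genes are shown, because the targeted factor binds DNA and because CpG dinucleotides are where imprints are written. Each window spans 250 bases before and 50 bases after a transcript start in RefSeq's annotation of mouse build GRCm38.p6, read 5′ to 3′ on the gene's strand, and 8 of the 10 genes have such windows, 12 in all. Windows of Nnat (chr2:157559828-157560127, plus strand) and Dlk1 (chr12:109452573-109452872, plus strand), the pair of genes whose libraries lay higher with the JunD gRNA, are printed with each CpG in capitals.
Nnat promoter: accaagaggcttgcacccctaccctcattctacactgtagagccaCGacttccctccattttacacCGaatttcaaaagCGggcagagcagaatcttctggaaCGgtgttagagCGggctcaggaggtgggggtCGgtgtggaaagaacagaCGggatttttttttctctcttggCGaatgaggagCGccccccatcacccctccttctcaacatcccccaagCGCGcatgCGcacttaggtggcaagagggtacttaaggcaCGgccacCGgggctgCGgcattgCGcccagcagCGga
Dlk1 promoter: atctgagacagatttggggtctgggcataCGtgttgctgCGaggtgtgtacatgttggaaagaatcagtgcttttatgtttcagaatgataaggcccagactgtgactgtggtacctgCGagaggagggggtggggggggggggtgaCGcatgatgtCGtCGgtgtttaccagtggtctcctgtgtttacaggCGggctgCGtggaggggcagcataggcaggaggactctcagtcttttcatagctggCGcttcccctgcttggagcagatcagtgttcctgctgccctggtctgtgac
The Nnat window held 17 CpG and the Dlk1 window 9, against a median of 7 over 32851 promoter windows. Windows of Meg3 (chr12:109540746-109541045, plus strand) and Peg3 (chr7:6730370-6730669, minus strand) are printed with the cyclic AMP response element TGACGTCA in capitals, a motif that AP-1 and ATF/CREB dimers can bind.
Meg3 promoter: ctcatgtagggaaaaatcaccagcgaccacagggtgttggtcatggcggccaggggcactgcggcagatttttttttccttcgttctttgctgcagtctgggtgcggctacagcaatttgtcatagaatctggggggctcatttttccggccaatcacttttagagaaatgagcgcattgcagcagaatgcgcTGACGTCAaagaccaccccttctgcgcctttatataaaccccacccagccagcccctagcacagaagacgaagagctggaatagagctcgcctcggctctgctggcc
Peg3 promoter: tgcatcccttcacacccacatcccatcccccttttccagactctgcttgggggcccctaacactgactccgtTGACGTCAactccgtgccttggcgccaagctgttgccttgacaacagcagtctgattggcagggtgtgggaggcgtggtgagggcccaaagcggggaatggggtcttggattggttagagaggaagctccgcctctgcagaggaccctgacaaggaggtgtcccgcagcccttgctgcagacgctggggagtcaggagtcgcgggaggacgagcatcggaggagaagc
The motif begins 57 bases before the start of Meg3 and 178 bases before that of Peg3, and is its own reverse complement, so both strands are covered. It occurs in these 2 of the 12 windows and in 588 of all 32851 windows (1.79%). The AP-1 motif TGACTCA, or TGAGTCA on the other strand, occurs in 0 of the 12 windows and in 1709 of all (5.2%). A match describes letters and not binding, and the levels of these 4 genes follow below.

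In these cells the 10 genes fell into an abundant and a scarce group. By RPKM, which is CPM per kilobase of exon and allows levels to be compared between genes, the order of the means over 6 libraries was Nnat (296 RPKM), Dlk1 (220), Peg3 (119), Meg3 (59.5), Rian (24.9), Plagl1 (14.8), Mest (0.666), Cdkn1c (0.425), Grb10 (0.186) and H19 (0.00324). Neighbours in this order kept it in 6 of 6 libraries, except that Dlk1 exceeded Peg3 in 5 of 6. In Rosa26 gRNA replicate 1, Peg3 stood at 159 RPKM and Dlk1 at 126 RPKM. Over all libraries the ranges of Nnat (255 to 360 RPKM) and Dlk1 (126 to 273 RPKM) overlapped, as did those of Dlk1 and Peg3 (100.2 to 159 RPKM), while the other neighbours from Peg3 to Grb10 did not overlap. Among 17767 tested genes, ranked in each library by RPKM, Nnat stood between 104 and 154, Dlk1 between 148 and 293, Peg3 between 228 and 440 and Meg3 between 707 and 856. Rian and Plagl1 ranked between 1817 and 4002, whereas Mest, Cdkn1c and Grb10 ranked between 13135 and 16728.

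**Figure D1:**
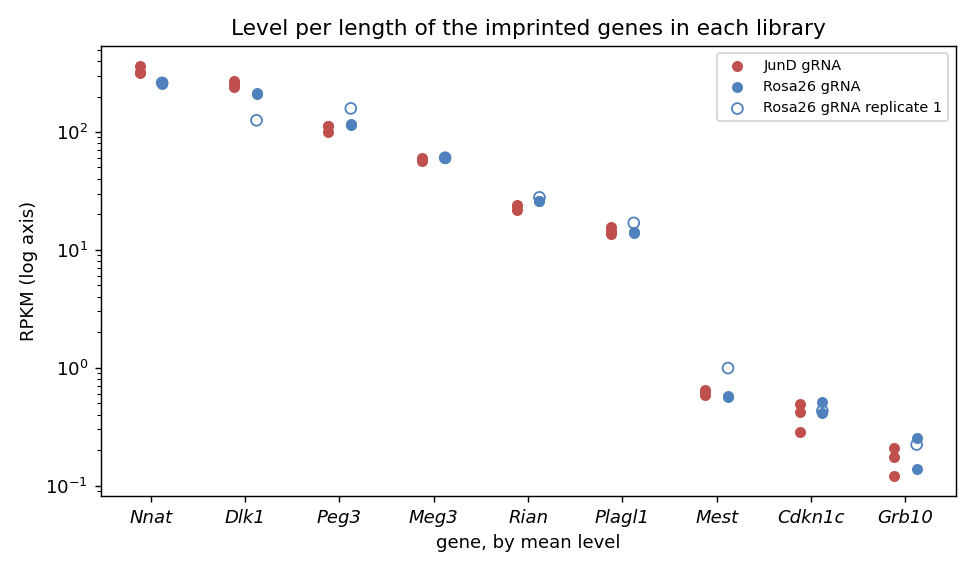
Level per length (RPKM, log axis) of the 9 genes that passed the count filter, in order of mean level, each point a library, with JunD gRNA libraries left of Rosa26 gRNA libraries and Rosa26 gRNA replicate 1 as an open circle. The 6 genes from Nnat to Plagl1 lie above 13 RPKM in all libraries and Mest, Cdkn1c and Grb10 below 1 RPKM.

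Between the groups, 4 of the 10 genes had JunD gRNA libraries wholly apart from the Rosa26 gRNA libraries in CPM. Nnat and Dlk1 lay above and Rian and Peg3 below. Over all 17767 tested genes 24.4% had groups that did not overlap, 11.6% above and 12.8% below, and since the set was chosen partly on this contrast nothing is read from the count. The median log2 fold change of the 9 tested genes was -0.14 over 6 libraries and -0.02 without Rosa26 gRNA replicate 1, against -0.006 and -0.003 over all tested genes.

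**Figure D2:**
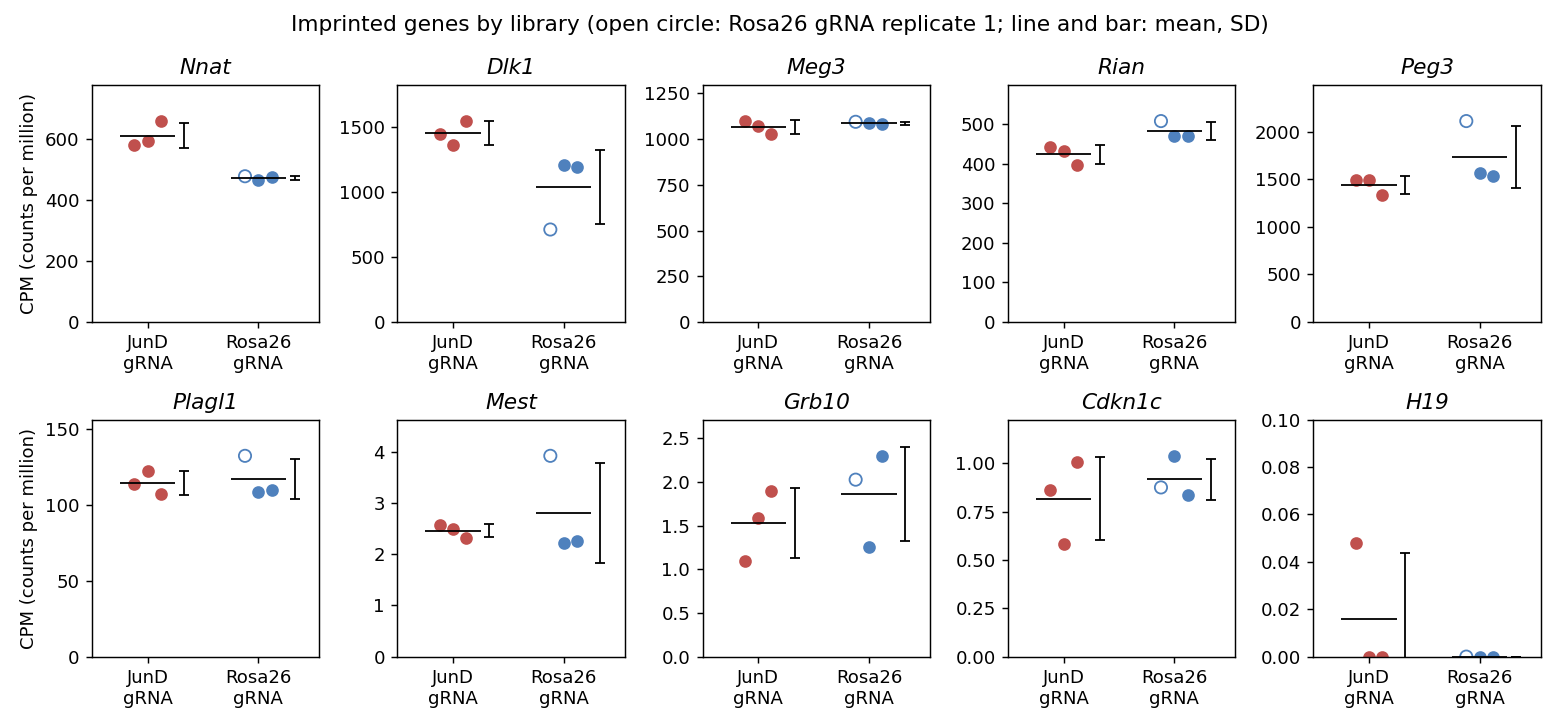
CPM of each of the 10 genes in each library, with JunD gRNA on the left and Rosa26 gRNA on the right of each panel, a line at the mean, a bar for the SD (n = 3) and an open circle for Rosa26 gRNA replicate 1. The groups lie apart for Nnat, Dlk1, Rian and Peg3, and Rosa26 gRNA replicate 1 is the lowest library of Dlk1 and the highest of Rian, Peg3, Plagl1 and Mest.

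Nnat (neuronatin, ENSMUSG00000067786.16, chr2:157560078-157562522, plus strand, protein-coding, 3 exons in its longest transcript) encodes a small membrane protein of the endoplasmic reticulum that in mouse beta cells binds the signal peptidase, the complex that cleaves the signal peptide of preproinsulin. Nnat had 579.9, 594 and 659 CPM in the JunD gRNA libraries, against 478, 466 and 476 CPM in the Rosa26 gRNA libraries. The lowest JunD gRNA library lay above the highest Rosa26 gRNA library, and here Rosa26 gRNA replicate 1 was in the same range as the other controls. The means were 611 ± 42.0 CPM with the JunD gRNA and 473 ± 6.44 CPM with the Rosa26 gRNA (SD, n = 3 each). The log2 fold change was 0.38 ± 0.07 (SE) with all 6 libraries and 0.38 ± 0.05 without Rosa26 gRNA replicate 1. Nnat is GC-rich (58.6% in its longest transcript). With the correction for GC content and length its log2 fold change was 0.15 ± 0.09 over 6 libraries and 0.28 ± 0.03 over 5. In bulk RNA a different share of cells that express a gene and a different amount of RNA per cell cannot be told apart.

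Nnat lies within an intron of Blcap, which is transcribed from the opposite strand and encodes a small protein linked to apoptosis. No exonic base is shared between them. Blcap averaged 43.5 ± 1.67 CPM with the JunD gRNA and 43.4 ± 1.60 CPM with the Rosa26 gRNA (SD, n = 3 each), and its groups overlapped (log2 fold change 0.02 ± 0.08 with all 6 libraries and -0.02 ± 0.06 without Rosa26 gRNA replicate 1, edgeR adjusted p = 0.921 and 0.918). In RPKM, Nnat exceeded Blcap 21.6-fold, 23.8-fold and 24.8-fold in the JunD gRNA libraries, against 19.1-fold, 17.7-fold and 17.7-fold in the Rosa26 gRNA libraries. The ratio was thus higher in every JunD gRNA library than in any Rosa26 gRNA library. With Blcap alike in both groups, this restates the difference of Nnat and adds nothing to it, and the ratio carries no GC correction. Of the 5 signal peptidase genes, Spcs1, Spcs2, Spcs3, Sec11a and Sec11c, 0 passed the edgeR test in either set of libraries. At an unadjusted p under 0.05 the counts were 0 with all 6 libraries and 2 without Rosa26 gRNA replicate 1, where 11.9% and 15.9% of all tested genes had such a p.

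Among 11632 genes with a mean of at least 2 CPM and an established symbol, those whose profile over the 6 libraries lay nearest to that of Nnat included Sox12, Cdk5r1, Npm3-ps1 and Bok. The measure was the root mean square difference of log2 CPM after each gene was centred on its own mean, and it ran between 0.0272 for Sox12 and 0.0478 for Bok. Sox12, a transcription factor gene on the same chromosome as Nnat, had 9.35, 9.54 and 10.7 CPM with the JunD gRNA, against 7.26, 7.54 and 7.61 CPM with the Rosa26 gRNA. These genes share the libraries and their depth with Nnat, and a resemblance over 6 points is a description.

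Dlk1 (ENSMUSG00000040856.17, chr12:109452823-109463336, plus strand, protein-coding, 6 exons) encodes a transmembrane protein with EGF-like repeats that acts as a non-canonical ligand of Notch receptors. Its level was 1447, 1363 and 1545 CPM with the JunD gRNA, against 711, 1208 and 1195 CPM with the Rosa26 gRNA. Every JunD gRNA library exceeded every Rosa26 gRNA library, and the gap was widest to Rosa26 gRNA replicate 1, the library with the low beta-marker share. The means were 1452 ± 91.0 CPM with the JunD gRNA and 1038 ± 283 CPM with the Rosa26 gRNA (SD, n = 3 each). The log2 fold change was 0.50 ± 0.18 (SE) with all 6 libraries and 0.28 ± 0.04 without Rosa26 gRNA replicate 1. Corrected for GC content and length (53.6% GC) it was 0.47 ± 0.15 and 0.26 ± 0.03, and the correction thus took less off this value than off that of Nnat. Of 11 tested genes of the Notch receptors, their ligands and their target genes, 0 passed the edgeR test in either set of libraries, with 1 of them at an unadjusted p under 0.05 in each. Of all tested genes, 11.9% had such a p over 6 libraries and 15.9% over 5.

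Meg3 (ENSMUSG00000021268.17, chr12:109541001-109571726, plus strand, long non-coding RNA, 5 exons) is read from the maternal copy of the Dlk1 cluster and is known from human islets, where its cluster is less active in type 2 diabetes. Meg3 stood at 1099, 1073 and 1028 CPM with the JunD gRNA, against 1095, 1086 and 1081 CPM with the Rosa26 gRNA. The groups overlapped and no library was far from the rest. The means were 1066 ± 35.9 CPM with the JunD gRNA and 1087 ± 6.71 CPM with the Rosa26 gRNA (SD, n = 3 each), and the difference was -0.01 ± 0.06 (log2 fold change, SE) with all 6 libraries and -0.02 ± 0.03 without Rosa26 gRNA replicate 1. Its sign changed with the correction for GC content and length, to 0.13 ± 0.07 over 6 libraries and 0.03 ± 0.03 over 5. The genes nearest to Meg3 in profile were Prim1, Csnk1d, Asns, Gbf1 and Fkbp9, at a root mean square difference of 0.01 to 0.0164 on the log2 scale. These are likewise genes with little difference between libraries.

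Rian (ENSMUSG00000097451.10, chr12:109603940-109661716, plus strand) is a maternal non-coding transcript of the same cluster and the host of C/D box small nucleolar RNAs. It had 442, 434 and 396 CPM with the JunD gRNA, against 508, 469 and 469.5 CPM with the Rosa26 gRNA. The highest JunD gRNA library lay below the lowest Rosa26 gRNA library. The means were 424 ± 24.2 CPM with the JunD gRNA and 482 ± 22.5 CPM with the Rosa26 gRNA (SD, n = 3 each). The log2 fold change was -0.17 ± 0.07 with all 6 libraries and -0.14 ± 0.04 without Rosa26 gRNA replicate 1. Rian is the most AT-rich gene of the set (35.8% GC), and with the correction the log2 fold change was 0.13 ± 0.12 over 6 libraries and -0.03 ± 0.03 over 5. The direction for Rian thus depends on that correction.

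Within the Dlk1 cluster, the differences were of unequal size. The ratio of Dlk1 to Meg3 in RPKM was 4.21, 4.06 and 4.81 in the JunD gRNA libraries, against 2.08, 3.56 and 3.53 in the Rosa26 gRNA libraries, so all JunD gRNA libraries lay above. The ratio of Rian to Meg3 was 0.399, 0.401 and 0.383 in the JunD gRNA libraries, against 0.461, 0.429 and 0.431 in the Rosa26 gRNA libraries, so all JunD gRNA libraries lay below. These ratios carry no GC correction, and with it over 6 libraries the log2 fold changes of Meg3 and Rian were alike (0.13 each) and that of Dlk1 remained the larger (0.47). Over 5 libraries the corrected values were 0.03 ± 0.03 for Meg3, -0.03 ± 0.03 for Rian and 0.26 ± 0.03 for Dlk1. Mirg, the microRNA host transcript at the far end of the cluster, averaged 39.5 ± 1.75 CPM with the JunD gRNA and 33.4 ± 7.02 CPM with the Rosa26 gRNA (SD, n = 3 each). It did not pass the test without Rosa26 gRNA replicate 1 (log2 fold change 0.08 ± 0.06, edgeR adjusted p = 0.572), and with all 6 libraries its log2 fold change was 0.26 ± 0.15. The ratio of Mirg to Meg3, also without GC correction, was 0.089, 0.0955 and 0.0912 in the JunD gRNA libraries, against 0.0572, 0.0849 and 0.0863 in the Rosa26 gRNA libraries. All JunD gRNA libraries thus lay above, the other way from Rian. Rtl1, a retrotransposon-derived gene of the cluster, averaged 4.46 ± 0.05 CPM with the JunD gRNA and 4.24 ± 0.78 CPM with the Rosa26 gRNA (SD, n = 3 each; log2 fold change 0.09 ± 0.16 over 6 libraries and 0.18 ± 0.16 over 5, edgeR adjusted p = 0.795 and 0.662), and its sign turned when Rosa26 gRNA replicate 3 was left out (-0.03 ± 0.18 over the remaining 4). Mir770 had no count in any library, but it shares 94 exonic bases with Meg3 on the same strand. How reads lying on both genes were counted is not given, so this is not read as absence of Mir770.

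**Figure D3:**
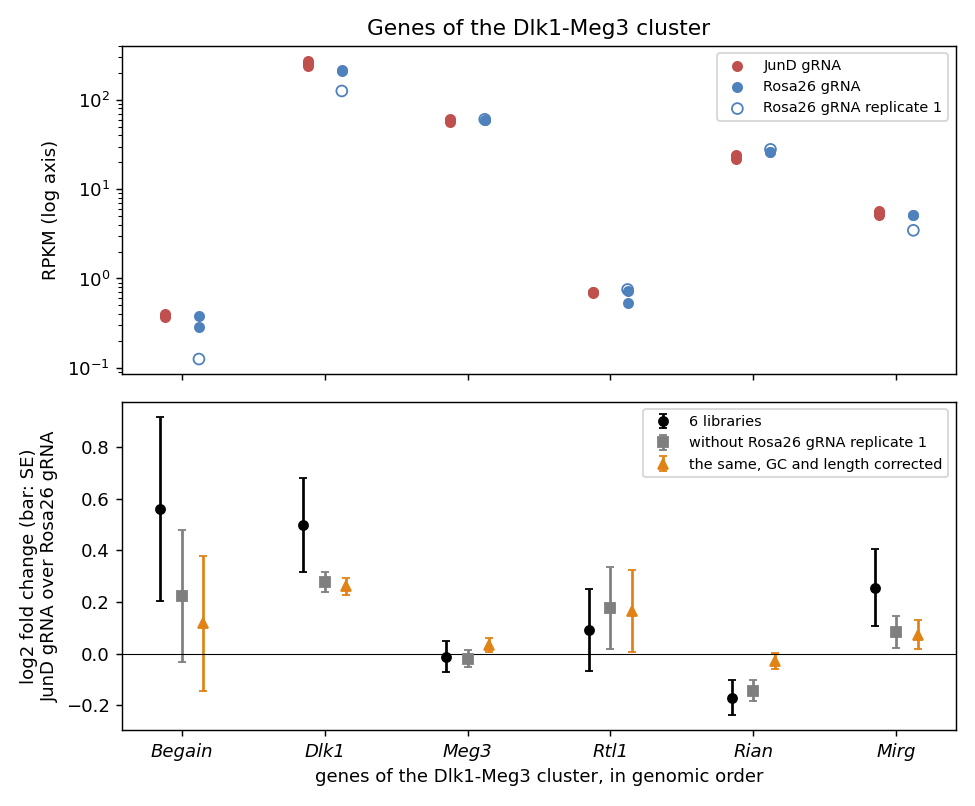
Genes of the Dlk1 cluster in genomic order. The upper panel gives RPKM on a log axis for each library, with JunD gRNA left of Rosa26 gRNA and Rosa26 gRNA replicate 1 as an open circle, and the lower panel the log2 fold change of JunD gRNA over Rosa26 gRNA with its SE for all 6 libraries, for the 5 without that replicate, and for those 5 after the GC and length correction. Dlk1 lies above 0 in all 3 fits, Meg3 near 0 and Rian below 0, at -0.03 after the correction.

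Peg3 and Plagl1 encode zinc-finger proteins. Peg3 (ENSMUSG00000002265.16, chr7:6703892-6730431, minus strand, protein-coding, 9 exons) is a large DNA-binding protein known for effects on growth and maternal behaviour in mice. Peg3 had 1497, 1492 and 1335 CPM with the JunD gRNA, against 2112, 1564 and 1529 CPM with the Rosa26 gRNA. The groups lay apart by a small margin, and Rosa26 gRNA replicate 1 was far above all others. The means were 1441 ± 91.8 CPM with the JunD gRNA and 1735 ± 327 CPM with the Rosa26 gRNA (SD, n = 3 each), and the log2 fold change was -0.25 ± 0.11 with all 6 libraries, -0.10 ± 0.04 without Rosa26 gRNA replicate 1, and -0.05 ± 0.03 over those 5 with the correction. Peg3 exceeded the neighbouring Zim1 in RPKM 8.45-fold, 8.42-fold and 8.65-fold in the JunD gRNA libraries, against 8.11-fold, 8.60-fold and 8.74-fold in the Rosa26 gRNA libraries, so that ratio overlapped between the groups. Usp29, which starts beside Peg3 on the opposite strand, did not pass the test (log2 fold change 0.10 ± 0.09 over 5 libraries, edgeR adjusted p = 0.664), and its sign was the opposite with all 6 libraries (-0.15 ± 0.18).

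Plagl1 (ENSMUSG00000019817.18, chr10:13060504-13131694, plus strand, protein-coding) is a transcription factor whose excess in humans causes transient neonatal diabetes. It had 114, 122 and 107 CPM with the JunD gRNA, against 132, 109 and 110.1 CPM with the Rosa26 gRNA. The groups overlapped, and Rosa26 gRNA replicate 1 was the highest library. The means were 114 ± 7.68 CPM with the JunD gRNA and 117 ± 13.3 CPM with the Rosa26 gRNA (SD, n = 3 each), and the log2 fold change was -0.02 ± 0.09 with all 6 libraries and 0.07 ± 0.05 without Rosa26 gRNA replicate 1. With the GC and length correction it was 0.09 ± 0.05 over 6 and 0.10 ± 0.04 over 5, so its sign at 6 libraries depends on the correction.

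The scarce genes of the set include the growth inhibitors. Cdkn1c (ENSMUSG00000037664.13, chr7:143458339-143461050, minus strand, 4 exons) encodes p57Kip2, an inhibitor of cyclin-dependent kinases whose loss occurs in focal hyperinsulinism of infancy in humans. Cdkn1c had 36, 24 and 50 counts with the JunD gRNA, against 38, 52 and 40 counts with the Rosa26 gRNA. Its means were 0.818 ± 0.215 CPM with the JunD gRNA and 0.917 ± 0.108 CPM with the Rosa26 gRNA (SD, n = 3 each), and the groups overlapped. The log2 fold change was -0.14 ± 0.31 with all 6 libraries and -0.18 ± 0.36 without Rosa26 gRNA replicate 1. Leaving out JunD gRNA replicate 2 turned its sign, to 0.05 ± 0.32 over the other 5, while leaving out Rosa26 gRNA replicate 2 took it to -0.04 ± 0.38 and JunD gRNA replicate 3 to -0.33 ± 0.35. Cdkn1c shares 625 of its 2039 exonic bases with Gm44732 on the opposite strand, which had 0 counts in every library. With the strand setting not given, the Cdkn1c counts may leave out reads from that part. Kcnq1ot1, the paternal non-coding RNA of the same cluster, did not pass the test, and its log2 fold change was 0.09 ± 0.09 over 5 libraries (edgeR adjusted p = 0.723) and -0.31 ± 0.24 over 6.

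Grb10 (ENSMUSG00000020176.17, chr11:11930508-12038683, minus strand, 17 exons) encodes an adaptor that binds the insulin and IGF1 receptors and dampens their signal. Grb10 had 46, 65 and 94 counts with the JunD gRNA, against 88, 63 and 110 counts with the Rosa26 gRNA. Its means were 1.53 ± 0.40 CPM with the JunD gRNA and 1.86 ± 0.54 CPM with the Rosa26 gRNA (SD, n = 3 each), and libraries of both groups were spread over about the same range. The log2 fold change was -0.26 ± 0.30 with all 6 libraries and -0.21 ± 0.29 without Rosa26 gRNA replicate 1. Single libraries moved it widely: it was -0.48 ± 0.29 without Rosa26 gRNA replicate 2, -0.07 ± 0.33 without Rosa26 gRNA replicate 3, -0.07 ± 0.31 without JunD gRNA replicate 1 and -0.46 ± 0.34 without JunD gRNA replicate 3. Without Rosa26 gRNA replicates 1 and 3 its sign turned, to 0.29 ± 0.37. Its neighbour Ddc, which encodes the decarboxylase that makes dopamine and serotonin, was far more abundant, at 348 ± 6.34 CPM with the JunD gRNA and 345 ± 9.86 CPM with the Rosa26 gRNA (SD, n = 3 each; log2 fold change 0.03 ± 0.06 over 6 libraries and 0.04 ± 0.04 over 5, edgeR adjusted p = 0.844 and 0.683). Of 6 genes of the insulin and IGF1 receptors and their adaptors, 1 fell over 5 libraries and 0 rose, against 1.40% and 1.45% of all tested genes. With the GC and length correction 1 fell and 1 rose. Grb14, an adaptor like Grb10, passed as higher only with the correction (log2 fold change 0.26, edgeR adjusted p = 0.0162). Without the correction it did not pass over 5 libraries (0.19 ± 0.06, adjusted p = 0.131). The gene that fell, Igf1r, the IGF1 receptor, averaged 502 ± 24.2 CPM with the JunD gRNA and 643 ± 77.2 CPM with the Rosa26 gRNA (SD, n = 3 each), and its log2 fold change was -0.25 ± 0.04 over 5 libraries (edgeR adjusted p = 0.000572) and -0.34 ± 0.09 over all 6 (adjusted p = 0.417).

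Mest (ENSMUSG00000051855.15, chr6:30723547-30748465, plus strand, 13 exons) encodes a protein of the endoplasmic reticulum with a hydrolase fold, known for enlargement of fat cells. Mest had 107, 102 and 115 counts with the JunD gRNA, against 170, 111 and 108 counts with the Rosa26 gRNA. The groups overlapped in CPM (2.45 ± 0.12 with the JunD gRNA and 2.80 ± 0.97 with the Rosa26 gRNA, SD, n = 3 each), and Rosa26 gRNA replicate 1 alone lay high. The log2 fold change was -0.17 ± 0.24 with all 6 libraries and 0.14 ± 0.20 without it, and with the GC and length correction it was -0.14 ± 0.23 and 0.15 ± 0.20, so its sign rests on that library. Mest shares 912 of its 3945 exonic bases with Copg2 on the opposite strand, and the strand setting of the counting is not given, so reads there cannot be told apart. Copg2, a coat protein gene, averaged 47.6 ± 3.44 CPM with the JunD gRNA and 52.2 ± 3.27 CPM with the Rosa26 gRNA (SD, n = 3 each; log2 fold change -0.12 ± 0.08 over 6 libraries and -0.08 ± 0.06 over 5, edgeR adjusted p = 0.512 and 0.605).

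H19 (ENSMUSG00000000031.16, chr7:142575529-142578143, minus strand, 5 exons) is a maternal long non-coding RNA that is abundant in fetal tissues and limits growth. H19 had 2, 0 and 0 counts with the JunD gRNA, against 0, 0 and 0 counts with the Rosa26 gRNA. A count of 0 allows up to 3 counts, which is 0.0604 to 0.0730 CPM with the JunD gRNA and 0.0600 to 0.0691 CPM with the Rosa26 gRNA. These limits cover counting error only, and no fold change is given. H19 was thus at or under the floor in every library, whereas Igf2, its partner on the opposite parental copy, was measured in all 6 libraries.

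**Figure D4:**
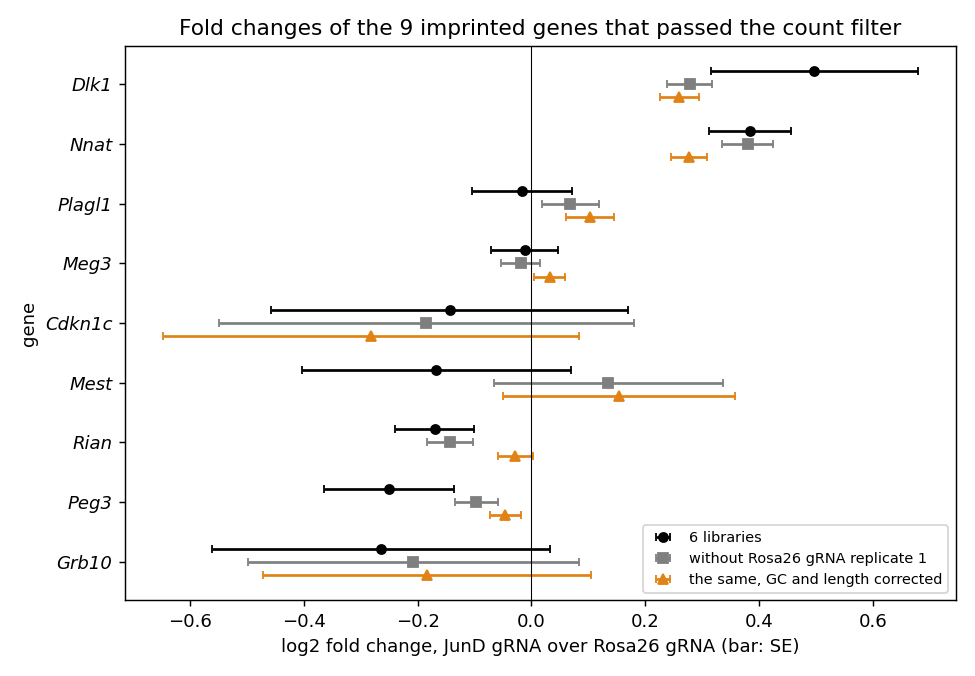
Log2 fold change (JunD gRNA over Rosa26 gRNA) of the 9 genes that passed the count filter, with SE bars, for all 6 libraries, for the 5 without Rosa26 gRNA replicate 1, and for those 5 after the GC and length correction. Dlk1 and Nnat lie right of 0 in all 3 fits, and the bars of Cdkn1c, Mest and Grb10, the scarce genes, are the widest.

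A list of 77 other imprinted genes, of which 76 were found in the tables, served as the surroundings of the set. With all 6 libraries 0 of the 53 tested genes passed the edgeR test, as for all 17767 genes (0%), with 11 at an unadjusted p under 0.05 where 11.9% of all tested genes had such a p, and DESeq2 called 1 and limma-voom 0. Without Rosa26 gRNA replicate 1, 7 of 54 rose and 3 fell, against 1.45% and 1.40% of the 18296 genes tested (2.86% in all). With the GC and length correction on these 5 libraries 6 rose and 3 fell, against 1.31% and 1.46% of all genes (2.78% in all). The shares of all genes were not matched for level, and genes of a common cluster, such as Kcnk9 and Peg13, were counted separately. Nothing is therefore read from the difference in shares. The median log2 fold change of the list was 0.05 over these 5 libraries and -0.02 over all 6. Leaving out a further Rosa26 gRNA library lowered the 10 calls to 1 (without replicate 2) and 2 (without replicate 3). In each case 1 control library remains, which is assumed to vary like the others.

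Kcnk9, a potassium channel gene expressed from the maternal copy, rose with the smallest adjusted p. It had 70.6, 73.3 and 71.9 CPM with the JunD gRNA, against 62.1, 51.7 and 54.2 CPM with the Rosa26 gRNA. The groups lay apart, and the log2 fold change was 0.45 ± 0.05 without Rosa26 gRNA replicate 1 (edgeR adjusted p = 1.63e-05) and 0.38 ± 0.08 with it. Peg13, the paternal non-coding RNA of the same cluster on chromosome 15, rose as well, with 184, 179.9 and 172 CPM with the JunD gRNA, against 168, 153 and 161 CPM with the Rosa26 gRNA (log2 fold change 0.19 ± 0.04, edgeR adjusted p = 0.0241 over 5 libraries, and 0.17 ± 0.06 over 6). Trappc9, in whose intron Peg13 lies, was singled out after its values were seen, and had a log2 fold change of 0.18 ± 0.08 over 6 libraries and 0.12 ± 0.05 over 5 (edgeR adjusted p = 0.417 and 0.229).

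On chromosome 7, Igf2, the paternally expressed fetal growth factor beside H19, had 122, 113 and 129.9 CPM with the JunD gRNA, against 87.8, 107 and 97.6 CPM with the Rosa26 gRNA. Each JunD gRNA library exceeded each Rosa26 gRNA library, and Igf2 rose over 5 libraries (log2 fold change 0.26 ± 0.06, edgeR adjusted p = 0.0103, and 0.34 ± 0.09 over 6). Igf2os, its antisense transcript, passed as well (log2 fold change 0.28 ± 0.06, adjusted p = 0.0103, and 0.18 ± 0.10 over 6), although its CPM overlapped between the groups when Rosa26 gRNA replicate 1 was counted. Igf2os shares 98 exonic bases with Igf2 on the opposite strand, and reads there cannot be told apart. Igf2 also shares 3596 of its 5723 exonic bases with Gm49394, an annotated gene on the same strand that had 0 counts in every library. How reads lying on both genes were counted is not given, so the Igf2 counts may leave out reads from that part. Ins2, which encodes insulin and is imprinted in the yolk sac but not in beta cells, had 49900, 49890 and 53630 CPM with the JunD gRNA, against 21950, 45930 and 49130 CPM with the Rosa26 gRNA. Its log2 fold change was 0.40 ± 0.25 over 6 libraries (edgeR adjusted p = 0.466), 0.11 ± 0.03 over 5 (adjusted p = 0.0389), and 0.05 over 5 after the GC and length correction, where the call was lost (adjusted p = 0.304). Tssc4, a gene of the Cdkn1c cluster, likewise rose over 5 libraries (log2 fold change 0.16 ± 0.04, adjusted p = 0.0469, against 0.32 ± 0.14 with adjusted p = 0.417 over 6) and not after the correction (0.06, adjusted p = 0.453). Gnas, which encodes the stimulatory G protein that couples incretin receptors to cyclic AMP, averaged 449 ± 19.1 CPM with the JunD gRNA and 371 ± 34.3 CPM with the Rosa26 gRNA (SD, n = 3 each), and rose over 5 libraries (log2 fold change 0.21 ± 0.04, edgeR adjusted p = 0.00553, and 0.29 ± 0.09 over 6). Several, though not all, of the markers of beta cells and of RNA quality given above passed the test over the same 5 libraries as these calls.

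Igf2r, Slc38a4 and Smoc1 fell. Igf2r, the receptor that clears IGF2 and sorts lysosomal enzymes, had 407, 389.8 and 366 CPM with the JunD gRNA, against 489, 444 and 454 CPM with the Rosa26 gRNA. Its groups lay apart, with a log2 fold change of -0.21 ± 0.04 over 5 libraries (edgeR adjusted p = 0.00602). Slc38a4, an amino acid transporter gene, averaged 482 ± 10.9 CPM with the JunD gRNA and 562 ± 40.7 CPM with the Rosa26 gRNA (SD, n = 3 each; log2 fold change -0.16 ± 0.04, edgeR adjusted p = 0.0194 over 5 libraries). Smoc1, which encodes a secreted calcium-binding protein and lies on chromosome 12, as Dlk1 does, averaged 207 ± 3.66 CPM with the JunD gRNA and 235 ± 3.29 CPM with the Rosa26 gRNA (SD, n = 3 each; log2 fold change -0.17 ± 0.04, edgeR adjusted p = 0.0198 over 5 libraries). Over all 6 libraries these 3 genes kept their sign, at -0.24, -0.20 and -0.17 on the log2 scale, and did not pass the test.

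**Figure D5:**
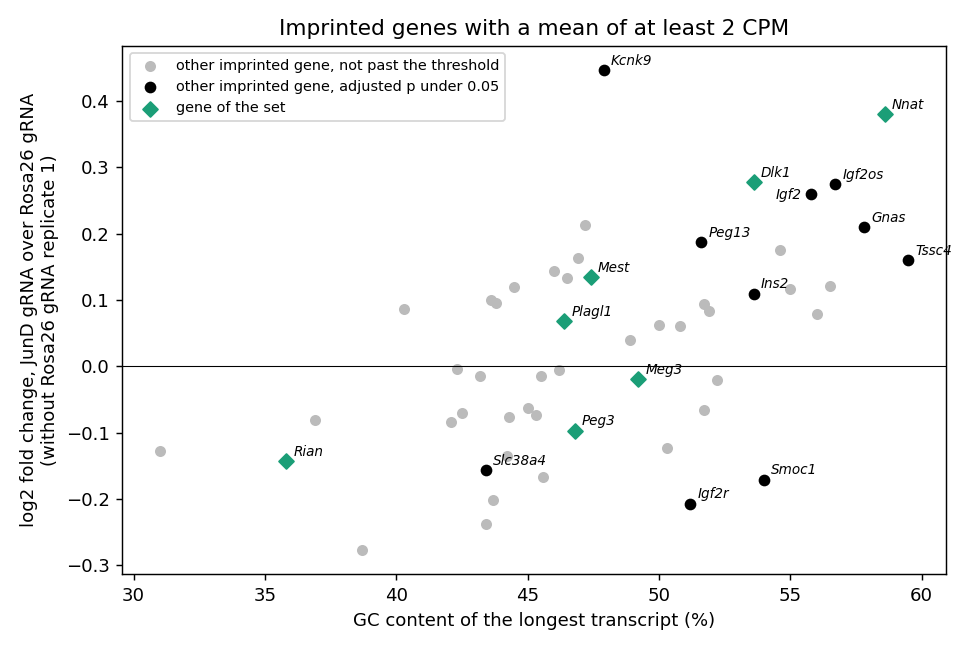
Log2 fold change of JunD gRNA over Rosa26 gRNA without Rosa26 gRNA replicate 1, against the GC content (%) of the longest transcript, for imprinted genes with a mean of at least 2 CPM. Diamonds are genes of the set, black points the 10 other imprinted genes that passed the test, and grey points the rest. Nnat lies at 58.6% GC and Rian at 35.8%, and the black points below 0 are Igf2r, Slc38a4 and Smoc1.

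Genes that set, read or maintain imprints were listed as well, among them the methyltransferase Dnmt1 and its partner Uhrf1. Of 22 tested, 0 passed the edgeR test in either set of libraries, with 3 at an unadjusted p under 0.05 in each (11.9% of all tested genes over 6 libraries and 15.9% over 5). Their median log2 fold change was -0.18 with all 6 libraries and -0.03 without Rosa26 gRNA replicate 1. Of 8 genes of menin, which binds JunD, and its histone methyltransferase complex, 0 passed in either set, with 1 at an unadjusted p under 0.05 in each, beside the same shares of all tested genes. Neural markers, of interest because Nnat is abundant in neurons, had 2 of 6 genes at 1 CPM or more in every library and summed to 112 to 122 CPM with the JunD gRNA and 109 to 116 CPM with the Rosa26 gRNA. Ductal markers (4 of 5 genes) summed to 317 to 345 CPM with the JunD gRNA and 345 to 443 CPM with the Rosa26 gRNA, and markers of other islet cells (4 of 7 genes) to 679 to 708 CPM with the JunD gRNA and 542 to 728 CPM with the Rosa26 gRNA. Acinar markers summed to at most 0.314 CPM and leukocyte and endothelial markers to at most 4.58 and 4.64 CPM in any library.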

How the data were processed

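RNA was measured by RNA-seq in 6 libraries of Min6 cells, 3 with a JunD gRNA and 3 with a Rosa26 gRNA, grouped by the sample titles and the gRNA label. The authors deposited raw counts per gene, 1 table for each library. The submitters' processing notes name TopHat2, featureCounts and mm10. Their versions, the annotation, the strand setting and the treatment of multi-mapped reads were not given in the sources used here. Symbols, matched without the version number for 53274 of 53379 identifiers, and coordinates, exons, GC content and lengths were taken from GENCODE M21 (GRCm38, which is mm10).

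CPM are counts over the library total. RPKM divide CPM by the kilobases of all annotated exons of a gene. Groups were compared with edgeR 4.0.16 in R 4.3.3 (TMM, filterByExpr, a quasi-likelihood fit on the group alone, two-sided, Benjamini-Hochberg adjustment over all tested genes, threshold 0.05), on all 6 libraries and without Rosa26 gRNA replicate 1. "Rose" and "fell" mean a call in the fit on 5 libraries, or in its GC and length corrected form where the correction is named. The SE is the absolute log2 fold change over the square root of the F statistic and is approximate. The correction for GC content and transcript length fitted each library's deviations by splines with 5 degrees of freedom and entered the fit as offsets. Alternatives used other normalizations and filters, DESeq2 1.42.0, limma-voom (limma 3.58.1), a replicate block and libraries left out. The procedure was tested on simulated counts. Nothing in the labels shows whether replicates were transduced separately, so p-values cover only the spread between these samples, possibly a technical one. Every pair of libraries differed by more than sampling noise (chi-square per degree of freedom of at least 3.26).

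The members and the gene lists were chosen with earlier results of these data known. Named genes were all members, partners in their clusters, the 5 other imprinted genes with the highest RPKM, up to 12 others with the smallest p among those called, up to 4 called genes of each other list, Jund, and the 5 genes nearest in profile to Nnat and to Meg3. Trappc9 is outside this rule. A gene in the list of nearest profiles is not reported here.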

Additional observations from a re-analysis of the deposited data

How the results depend on the processing

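With all 6 libraries the count of genes past the threshold (0) stayed at 0 under RLE and upper-quartile factors, a filter of 1 CPM in 3 libraries, limma-voom and without the 10 most abundant genes. It was 86 with no count filter, 67 with DESeq2, 426 with limma-voom and sample weights and 17 with the GC and length correction. For the other imprinted genes (0) the counts were 1, 1, 8 and 1 in the same order. Leaving out a replicate gave 0 to 523 genes and 0 to 10 other imprinted genes, both highest without Rosa26 gRNA replicate 1 and 0 without any other library. Over 5 libraries the count of genes (523) was 870 with no count filter, and leaving out a further library, an alternative chosen after seeing the data, gave 46 to 672 genes and 1 to 11 other imprinted genes. The counts fell to 51 and 46 genes without Rosa26 gRNA replicates 2 and 3. The cause was not tested, but these fits hold 1 control library.

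With the replicate number as a block, 0 genes and 0 other imprinted genes passed over 6 libraries, and 832 and 10 over 5. Same-numbered libraries of the groups correlated at 0.0555, -0.0393 and 0.0742 in their deviations from the group means, so the numbers were not taken to pair them, and JunD gRNA replicate 2 did not correlate best with its own number.

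Nnat ranged between 0.15 and 0.42 and Dlk1 between 0.28 and 0.62 on the log2 scale over 16 fits that used or started from 6 libraries, with no change of sign. Rian changed sign in 1 of them, the GC and length correction. Plagl1 changed sign in 4 of the 16, Meg3 and Mest in 2 each and Cdkn1c in 1 of 15, while Grb10 and Peg3 kept theirs. Among partners, signs turned for Blcap (-0.028 with sample weights, -0.044 with the correction), Kcnq1ot1 (0.059 and 0.092) and Usp29 (0.095 and 0.067). Leaving out each replicate in turn, Blcap ranged from -0.021 to 0.056, Kcnq1ot1 from -0.504 to 0.086, Usp29 from -0.288 to 0.1 and Rtl1 from -0.045 to 0.175 over 6 libraries, and over 5 Blcap ranged from -0.038 to 0.018 and Rtl1 from -0.027 to 0.421. No scaling shifted the median of all genes by more than 0.015. Counts of 24 to 110 limit the precision for Cdkn1c and Grb10.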
